A study of Mus musculus with 10 samples.

Results

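The genes of MHC class II antigen presentation were followed through 4 populations sorted from mouse intestinal epithelium. Of 8 genes chosen for their place in this pathway, 7 had a probe set (a group of array probes that gives 1 value) with a single gene symbol, out of 18820 genes measured this way: H2-Aa, H2-Ab1, H2-Eb1, Cd74, H2-DMa, Ctss and Ciita. Each of the 7 had 1 such probe set. The remaining gene, H2-DMb1, shared its probe set 10444236 with H2-DMb2, so the value of that probe set could not be given to either gene and was left out of the counts.

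MHC class II molecules are pairs of an alpha and a beta chain that carry peptides from the endosomes to the cell surface and show them to CD4+ T cells. Newly made pairs are held by the invariant chain Cd74, which the protease cathepsin S cuts down to a small fragment, and the H2-DM molecule then exchanges this fragment for a peptide. Transcription of these genes depends on the transactivator Ciita, which is recruited to their promoters by DNA-binding factors and is induced by interferon-gamma. Dendritic cells, macrophages and B cells are the best known class II cells, and intestinal epithelial cells, crypt stem cells among them, express class II genes as well.

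The cells came from intestines of mice with an Lgr5-EGFP-ires-CreERT2 allele, in which green fluorescent protein (GFP) and an inducible Cre recombinase are driven by the promoter of the stem cell receptor gene Lgr5, and of Ki67-TagRFP mice, in which a red fluorescent protein is attached to the end of the endogenous proliferation protein Ki67. The groups were GFP high and red high (Lgr5-high Ki67-high, 2 arrays), GFP high and red low (Lgr5-high Ki67-low, 2 arrays), GFP medium and red high (Lgr5-medium Ki67-high, 4 arrays) and GFP medium and red low (Lgr5-medium Ki67-low, 2 arrays). The sources used here give no treatment, age, strain background or number of animals per array, so p-values measure only how far the samples spread, and that spread may be technical. The study's title poses the question of how fast and slow cycling crypt base columnar cells, the Lgr5-expressing stem cells, differ.

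Total RNA was measured on 10 Affymetrix Mouse Gene ST 1.1 arrays, and the deposited values were read as log2, so that a difference of 1 is a 2-fold change. The median value of an array ranged from 4.23 to 4.40, and the number of arrays limits the precision. Lgr5 itself was 1.99 higher in Lgr5-high than in Lgr5-medium cells at Ki67 high (limma adjusted p = 0.00104). At Ki67 low it was 1.64 higher (limma adjusted p = 0.00054). Mki67, as Ki67 low minus Ki67 high, was at -0.11 in Lgr5-high and -0.29 in Lgr5-medium cells and passed in neither comparison. Whether Ki67-low cells cycled more slowly was not tested here. The epithelial list, which includes Epcam and the keratin gene Krt8, had a mean level between 10.79 and 11.03 on every array. Lgr5-medium Ki67-high replicate 4 stood apart, with the smallest mean correlation to the rest (0.986) and the smallest limma array weight (0.294), and values without it are given beside the results that moved most. In sorted bulk samples, fewer cells that express a gene and less RNA per cell cannot be told apart.

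The class II promoters are shown first. H2-Aa, H2-Ab1 and H2-Eb1, in the H2 region of chromosome 17, had closely similar values across the arrays. H2-DMa, also on chromosome 17, did not share them. The part of the promoters in these values was not tested. The RefSeq promoter windows, of assembly GRCm38.p6, span 250 bases before to 50 bases after a transcription start, and 5 of the 8 listed genes had one: H2-Aa, H2-Eb1, H2-DMb1, H2-DMa (with 2 starts) and Ctss. H2-Ab1, Cd74 and Ciita had none there. Class II promoters are known for an X box, bound by the RFX complex and by CREB-type factors, followed by a Y box, bound by NF-Y. The 250 bases before the start of H2-Aa (minus strand, chr17:34287824-34288073) and H2-Eb1 (plus strand, chr17:34305617-34305866) are given 5′ to 3′, with matches in capitals. The motifs searched, on both strands, were CCAAT (the Y box core), TGACGTCA (a CREB-type site) and an X box core pattern with open positions, whose matches read AGCAACTGATG, AGTAACTGATG or AGCAACAAATG in the class II genes.
H2-Aa: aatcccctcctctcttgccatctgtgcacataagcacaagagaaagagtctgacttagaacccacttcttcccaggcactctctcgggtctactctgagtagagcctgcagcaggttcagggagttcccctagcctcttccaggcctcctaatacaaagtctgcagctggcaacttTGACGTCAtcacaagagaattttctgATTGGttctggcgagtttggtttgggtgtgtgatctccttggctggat
H2-Eb1: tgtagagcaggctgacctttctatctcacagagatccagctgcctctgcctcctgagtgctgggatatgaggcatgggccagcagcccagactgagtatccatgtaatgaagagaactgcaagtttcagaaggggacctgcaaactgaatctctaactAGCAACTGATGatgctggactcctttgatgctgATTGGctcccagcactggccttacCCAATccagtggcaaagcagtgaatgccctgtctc

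In H2-Aa the reverse of the Y box core, ATTGG, began 48 bases before the start and TGACGTCA began 74 bases before it. H2-Eb1 held the X box core 92 bases before the start and ATTGG 59 bases before it. CCAAT on either strand was present in 37.4% of the 32851 windows of the genome, the X box core pattern in 4.18% and TGACGTCA, which was added after the letters had been read, in 1.79%. An X box core followed by ATTGG on the same strand, starting within 40 bases of its end, was present in 0.128% of the windows. Among the class II genes with a window it was found in H2-Eb1 and in 3 others, and not in H2-Aa, H2-DMa, H2-DMb2, H2-Oa or Ctss. The stretches found are printed from the first base of the X box core to the last base of ATTGG, with the matches in capitals. They lie on the plus strand at chr17:34305775-34305812 (H2-Eb1), chr17:34153096-34153134 (H2-DMb1), chr17:34325542-34325579 (H2-Eb2) and chr17:34238817-34238852 (H2-Ob).
H2-Eb1: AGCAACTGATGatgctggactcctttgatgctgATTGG
H2-DMb1: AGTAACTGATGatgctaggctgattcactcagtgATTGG
H2-Eb2: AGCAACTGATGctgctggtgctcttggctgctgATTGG
H2-Ob: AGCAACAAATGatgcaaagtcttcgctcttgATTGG

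The gap between the 2 matches was 20 to 23 bases in these 4 genes. The window at the upstream start of H2-DMa and that of Ctss held none of the motifs, which says only that these letters are not in those windows. The second H2-DMa window held ATTGG 198 bases before its start. A match is a description of letters and was not tested as a binding site.

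The chains of the class II molecule are described first, and their highest values lay in Lgr5-high Ki67-low cells. H2-Aa, the alpha chain of the I-A molecule, had log2 values of 8.87 and 8.47 in the Lgr5-high Ki67-high arrays and 9.39 and 9.30 in the Lgr5-high Ki67-low arrays. It had values of 8.50, 7.94, 8.33 and 9.27 in the Lgr5-medium Ki67-high arrays and 8.64 and 8.88 in the Lgr5-medium Ki67-low arrays. Both Lgr5-high Ki67-low arrays were above the other 8, and replicate 4 of the Lgr5-medium Ki67-high group, at 9.27, was close below them.

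H2-Ab1, the beta chain of I-A, had log2 values of 9.58 and 9.31 in Lgr5-high Ki67-high cells and 9.89 and 10.09 in Lgr5-high Ki67-low cells. Its values were 9.43, 9.11, 9.50 and 9.75 in Lgr5-medium Ki67-high cells and 9.61 and 9.50 in Lgr5-medium Ki67-low cells. The Lgr5-high Ki67-low arrays were again the highest, and the other 3 groups overlapped one another.

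H2-Eb1, the beta chain of the I-E molecule, had log2 values of 9.36 and 9.20 in Lgr5-high Ki67-high cells and 9.52 and 9.84 in Lgr5-high Ki67-low cells. The gene measured 9.03, 8.66, 9.01 and 9.42 in Lgr5-medium Ki67-high cells and 9.27 and 9.14 in Lgr5-medium Ki67-low cells. The order of the group means was Lgr5-high Ki67-low, Lgr5-high Ki67-high, Lgr5-medium Ki67-low and Lgr5-medium Ki67-high, and the last 3 overlapped with their neighbours in that order.

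Cd74, the invariant chain, had log2 values of 9.73 and 9.55 in Lgr5-high Ki67-high cells and 10.27 and 10.59 in Lgr5-high Ki67-low cells. Its values were 9.51, 9.63, 10.03 and 9.92 in Lgr5-medium Ki67-high cells and 9.96 and 9.86 in Lgr5-medium Ki67-low cells. The Lgr5-high Ki67-low arrays stood above the other 8, and the lowest group mean was that of Lgr5-high Ki67-high cells (9.64 ± 0.13, SD, n = 2).

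H2-DMa, the alpha chain of the H2-DM peptide exchanger, did not share this order. Its log2 values were 8.05 and 7.93 in Lgr5-high Ki67-high cells, 8.12 and 7.98 in Lgr5-high Ki67-low cells and 7.94 and 7.79 in Lgr5-medium Ki67-low cells. In the Lgr5-medium Ki67-high group it spread from 7.38 in replicate 1 over 8.18 and 8.47 to 8.73 in replicate 4, so that this group held both the lowest and the highest array. Every neighbouring pair of groups overlapped.

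Ctss, the gene of cathepsin S, had its highest values in Lgr5-medium Ki67-high cells, at 7.82, 7.83, 7.54 and 8.15. It measured 7.44 and 7.31 in Lgr5-high Ki67-high cells, 7.64 and 7.26 in Lgr5-high Ki67-low cells and 7.34 and 7.67 in Lgr5-medium Ki67-low cells. Neighbouring groups in its order overlapped.

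Ciita, the transactivator, had log2 values of 5.48 and 5.37 in Lgr5-high Ki67-high cells and 5.47 and 5.79 in Lgr5-high Ki67-low cells. Ciita measured 5.30, 5.09, 5.26 and 5.25 in Lgr5-medium Ki67-high cells and 5.27 and 5.27 in Lgr5-medium Ki67-low cells. The lowest of the 4 Lgr5-high arrays was at 5.37 and the highest of the 6 Lgr5-medium arrays at 5.30. This split was picked after the values were seen, and the share of all genes with such a split was not counted.

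**Figure D1:**
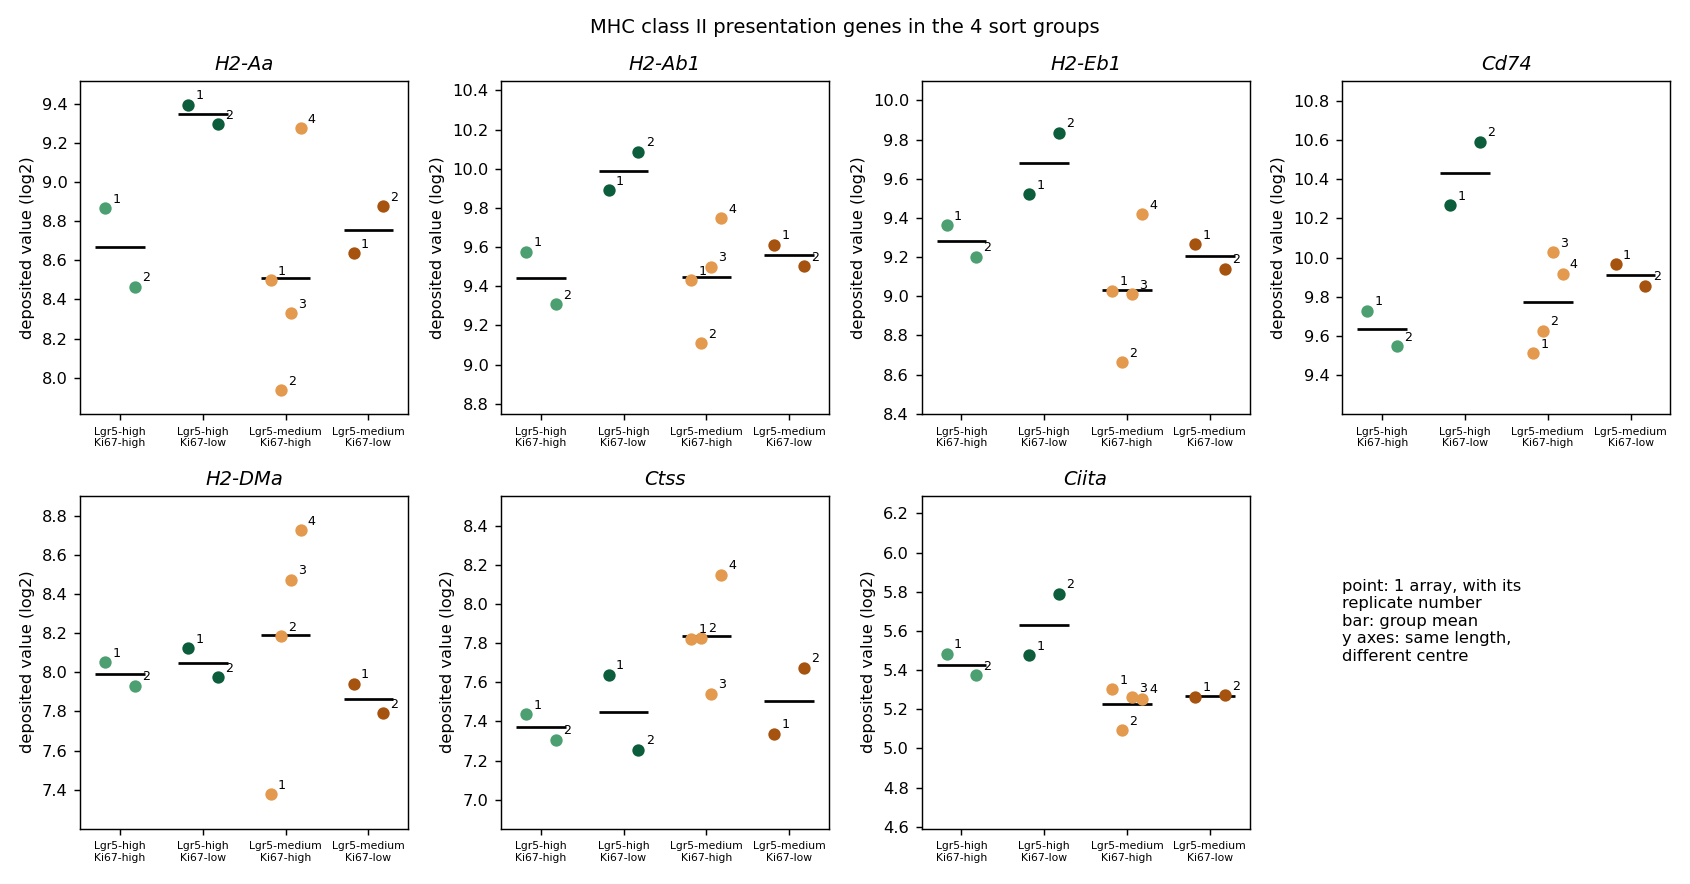
Deposited log2 values (y axis) of the 7 genes in the 4 sort groups (x axis); each point is 1 array with its replicate number and each bar a group mean. For H2-Aa, H2-Ab1, H2-Eb1 and Cd74 both Lgr5-high Ki67-low arrays are the highest of the 10, while H2-DMa spreads from 7.38 to 8.73 within the Lgr5-medium Ki67-high group.

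Altogether, both Lgr5-high Ki67-low arrays lay above the other 8 for 4 of the 7 genes, against 5.16% of all genes, and the group had the highest mean for 5 of the 7, against 28% of all genes. These counts were chosen after the values were seen and are a description. The probe set shared by H2-DMb1 and H2-DMb2 also had its highest mean there, at 5.50 ± 0.12 (SD, n = 2), against 5.24 ± 0.12 (SD, n = 2) in Lgr5-high Ki67-high, 5.14 ± 0.31 (SD, n = 4) for Lgr5-medium Ki67-high and 5.30 ± 0.040 (SD, n = 2) for Lgr5-medium Ki67-low. It passed the limma threshold in none of the 7 comparisons in a fit over all deposited probe sets (smallest adjusted p = 0.681).

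Ki67-low and Ki67-high cells were compared at Lgr5 high, as Ki67 low minus Ki67 high. All 7 genes had a difference above 0, where 48% of all genes did, and the median over the 7 was 0.40 against -0.0064 over all genes. Cd74 had the largest difference, 0.79 (95% interval 0.40 to 1.19), or 1.73-fold. H2-Aa differed by 0.68 (-0.070 to 1.43), H2-Ab1 by 0.55 (0.14 to 0.95) and H2-Eb1 by 0.40 (-0.061 to 0.85). Ciita differed by 0.20 (-0.064 to 0.47), and H2-DMa and Ctss by 0.059 and 0.074.

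With p-values adjusted by Benjamini-Hochberg over the 18820 genes and a threshold of 0.05, limma called 0 of the 7, where it called 0.00531% of all genes; the smallest adjusted p was 0.817, for Cd74. At an unadjusted p under 0.05 there were 2 of the 7, Cd74 and H2-Ab1, against 4.53% of all genes. The arrays of the 2 groups did not overlap for 4 of the 7, against 38.4% of all genes. When Lgr5-high Ki67-low replicate 1 was left out, the difference of Ctss was -0.12 and that of H2-DMa -0.015, and without Lgr5-high Ki67-high replicate 2 that of H2-DMa was -0.00023. Ciita was at 0.36 without Lgr5-high Ki67-low replicate 1 and at 0.047 without replicate 2 of that group, and H2-Eb1 at 0.24 without that replicate 2. The difference of Cd74 lay between 0.63 and 0.95 over all alternatives and fits without 1 array.

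Markers of immune cells were read beside this comparison. The medians of the lists were -0.0083 for 9 dendritic cell markers, 0.020 for 11 macrophage markers, 0.0056 for 7 B cell markers, 0.025 for 10 general leukocyte markers and -0.20 for 10 markers of T cells and intraepithelial lymphocytes. None of these genes passed the threshold between the Lgr5-high groups. The mean deviation of the dendritic cell list from its 10-array mean was 0.0091 to 0.064 in the Lgr5-high Ki67-high and -0.016 to 0.069 in the Lgr5-high Ki67-low arrays, and that of the macrophage list 0.0074 to 0.034 and 0.033 to 0.048. All 10 markers of crypt base columnar stem cells, Lgr5 among them, were above 0 in this comparison as well, with a median of 0.40 and 0 past the threshold, and the part of the stem cell content in the class II values was not tested. An array has no true 0, and background values were not used here, so no marker could be called absent.

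Among Lgr5-medium cells 5 of the 7 genes lay closer to 0 than at Lgr5 high. H2-Aa differed by 0.25 (95% interval -0.40 to 0.90), H2-Eb1 by 0.17 (-0.22 to 0.57), Cd74 by 0.14 (-0.20 to 0.48), H2-Ab1 by 0.11 (-0.24 to 0.46) and Ciita by 0.041 (-0.19 to 0.27). H2-DMa and Ctss lay farther from 0 and on the other side, at -0.32 (-0.97 to 0.33) and -0.33 (-0.71 to 0.051). With each array centred on its median over the genes tested, H2-Ab1 was at -0.020 and Ciita at -0.090, and after quantile normalization Ciita was at -0.062. The median over the 7 was 0.11, against -0.019 over all genes, and 5 of the 7 were above 0, against 44.6%.

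Limma called 0 of the 7 between the Lgr5-medium groups, where it called 3.58% of all genes, and 0 of the 7 had an unadjusted p under 0.05, against 15.7%. The arrays overlapped for every member, while 24.5% of all genes did not overlap. Without Lgr5-medium Ki67-high replicates 1, 2 and 4, left out singly, the median was 0.066, -0.0017 and 0.19, and leaving out Lgr5-medium Ki67-low replicate 1 gave 0.057. H2-Aa was at 0.055 without Lgr5-medium Ki67-high replicate 2 and at 0.50 without replicate 4, H2-Eb1 at 0.051 and 0.30, and H2-DMa at -0.60 without replicate 1 and -0.15 without replicate 4. Ctss was at -0.16 when replicate 1 of the Lgr5-medium Ki67-low group was dropped and at -0.50 when replicate 2 was. The median over the 7 was -0.020 with centred arrays, 0.18 after quantile normalization and 0.18 with array weights.

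Markers of other cells moved with this comparison. The leukocyte list had a median of 0.33, with 2 of 10 members higher: Rac2, a GTPase of blood cells (2.25 ± 0.25, SE, adjusted p = 0.000801), and Laptm5 (0.63 ± 0.13, SE, adjusted p = 0.0251). For the T cell list the median was 0.59 and 0 of 10 passed, while 8 of 9 tuft cell and 10 of 10 enteroendocrine cell markers rose, with medians of 3.16 and 2.61. Among the tuft cell genes were the kinase Dclk1 (3.34 ± 0.27, SE, adjusted p = 0.000118), the lipoxygenase Alox5 (3.30 ± 0.29, SE, adjusted p = 0.000187) and Avil (2.69 ± 0.24, SE, adjusted p = 0.000227). The enteroendocrine genes included the transcription factors Rfx6 (2.60 ± 0.13, SE, adjusted p = 1.54e-05) and Neurod1 (2.52 ± 0.17, SE, adjusted p = 6.21e-05) and the granule protein Chgb (2.61 ± 0.18, SE, adjusted p = 6.21e-05). Of the stem cell markers 3 of 10 rose, Lgr5 (1.20), Igfbp4 (0.61) and Rgmb (0.68), and of the epithelial list 1 of 10, Krt18 (0.70). The part of these cells in the class II values was not tested.

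The interaction term subtracts the Ki67 difference of Lgr5-medium cells from that of Lgr5-high cells and so tests whether the Lgr5 level changed it. It was above 0 for all 7 genes, where 54.5% of all genes were, and its median was 0.40 against 0.023. Cd74 had the largest term, 0.65 (95% interval 0.13 to 1.18), followed by H2-Ab1 (0.44, -0.10 to 0.97), H2-Aa (0.43, -0.56 to 1.42) and Ctss (0.40, -0.18 to 0.98). Limma called 0 of the 7 (smallest adjusted p = 0.448), against 1.04% of all genes, and 1 of the 7, Cd74, had an unadjusted p under 0.05, against 8.08%. The Ki67 differences at the 2 Lgr5 levels were thus not shown to differ for any member. Without Lgr5-medium Ki67-high replicate 4 the median of the interaction was 0.20, with H2-Aa at 0.18 and H2-Eb1 at 0.093. Ciita, at 0.16 over all arrays, was at 0.0059 without Lgr5-high Ki67-low replicate 2. The interaction was above 0 for 11 of 11 measured genes of class I presentation as well, with a median of 0.15 and 0 past the threshold. In this term 10 of 10 enteroendocrine markers (Rfx6 -2.77, Chgb -3.26 and Neurod1 -2.97 among them), 6 of 9 tuft cell markers (Dclk1 -3.44, Alox5 -3.47 and Trpm5 -3.24 among them) and Rac2 (-2.35) passed below 0, with list medians of -3.29 for enteroendocrine and -3.24 for tuft cells, and their part in the class II values was not tested.

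**Figure D2:**
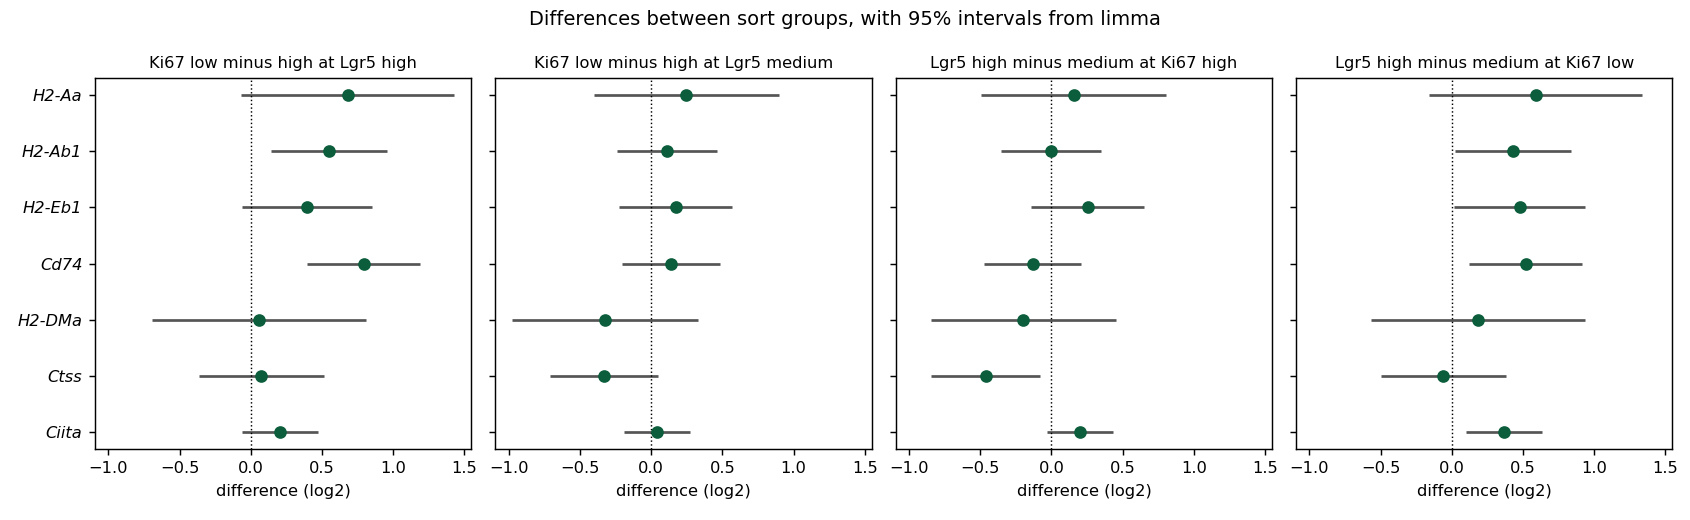
Log2 differences (x axis) of the 7 genes (y axis) in the 4 comparisons of 2 sort groups, with the 95% interval of limma's moderated test as a line; the dotted line marks no difference. At Lgr5 high all 7 points lie above 0, from 0.059 to 0.79, and at Ki67 low 6 of the 7 do.

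Lgr5-high and Lgr5-medium cells were then compared at equal Ki67 level, as Lgr5 high minus Lgr5 medium. Among Ki67-low cells H2-Aa differed by 0.59 (95% interval -0.16 to 1.34), Cd74 by 0.52 (0.12 to 0.91), H2-Eb1 by 0.48 (0.018 to 0.93), H2-Ab1 by 0.43 (0.024 to 0.84) and Ciita by 0.36 (0.096 to 0.63). H2-DMa was at 0.18 and Ctss at -0.059, the latter at 0.0099 with centred arrays. The median over the 7 was 0.43, against 0.030 over all genes, and 6 of the 7 were above 0, against 57.3%.

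Limma called 0 of the 7 among Ki67-low cells (smallest adjusted p = 0.17, for Ciita), where it called 2.84% of all genes. At an unadjusted p under 0.05 there were 4 of the 7, Ciita, Cd74, H2-Ab1 and H2-Eb1, against 14.6% of all genes. For 6 of the 7 the arrays of the 2 groups did not overlap, against 47.1% of all genes. The leukocyte list had a median of -0.072 in this comparison and the T cell list one of -0.51, and those of the dendritic cell, macrophage and B cell lists were 0.047, 0.028 and -0.042. Of these 5 lists' genes only Rac2 passed, at -2.02 ± 0.29 (SE; limma adjusted p = 0.00446). Ciita was at 0.21 without Lgr5-high Ki67-low replicate 2.

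The epithelial cell type lists moved more in this comparison at Ki67 low. Of the tuft cell markers 8 of 9 were lower in Lgr5-high cells, with a list median of -2.93, among them Dclk1 (-3.05 ± 0.31, SE, adjusted p = 0.000614), Alox5 (-3.08 ± 0.33, SE, adjusted p = 0.000855) and Avil (-2.56 ± 0.28, SE, adjusted p = 0.000998). All 10 enteroendocrine markers were lower as well, with a list median of -2.68, among them Rfx6 (-2.64 ± 0.15, SE, adjusted p = 4.81e-05), Neurod1 (-2.75 ± 0.20, SE, adjusted p = 0.00016) and Chgb (-2.58 ± 0.21, SE, adjusted p = 0.000232). Of the stem cell markers 7 of 10 were higher, with a list median of 0.95, among them Lgr5, Tnfrsf19 (1.36 ± 0.15, SE, adjusted p = 0.0009) and Slc14a1 (1.26 ± 0.15, SE, adjusted p = 0.00149). The Lgr5-high and Lgr5-medium cells compared here therefore differed in cell type markers, and the part of these cells in the class II values was not tested.

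Among Ki67-high cells the class II genes lay on both sides of 0. H2-Eb1 differed by 0.25 (95% interval -0.14 to 0.65), Ciita by 0.20 (-0.031 to 0.43) and H2-Aa by 0.16 (-0.49 to 0.80). H2-Ab1 was at -0.0040, Cd74 at -0.13 (-0.48 to 0.21), H2-DMa at -0.20 (-0.85 to 0.45) and Ctss at -0.46 (-0.84 to -0.082). H2-Ab1 was at 0.090 after quantile normalization. The median over the 7 was -0.0040, against 0.012 over all genes.

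Limma called 0 of the 7 among Ki67-high cells (smallest adjusted p = 0.238, for Ctss), where it called 0.935% of all genes. Only Ctss had an unadjusted p under 0.05, which is 1 of the 7 against 15.2% of all genes, and the arrays did not overlap for 2 of the 7, Ctss and Ciita, against 27.2%. Leaving out single arrays moved the median between -0.14 (without Lgr5-high Ki67-high replicate 1) and 0.13 (without replicate 2 of that group). It was 0.097 without Lgr5-medium Ki67-high replicate 4, -0.12 without replicate 2, 0.014 without replicate 3 and -0.0094 without replicate 1 of the latter group. H2-Aa was at 0.41, H2-Eb1 at 0.38 and H2-DMa at -0.020 without that replicate 4. Of the stem cell markers 7 of 10 were higher in Lgr5-high cells, with a list median of 0.96, among them Lgr5, Slc14a1 (1.35) and Tnfrsf19 (1.23), and their part in the class II values was not tested.

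Averages over both levels of the other reporter use all 10 arrays and share them with the comparisons already given. For Lgr5 high minus Lgr5 medium, averaged over the Ki67 levels, H2-Aa was at 0.37 (95% interval -0.12 to 0.87), H2-Eb1 at 0.36 (0.062 to 0.67), Ciita at 0.28 (0.11 to 0.46), H2-Ab1 at 0.21 (-0.056 to 0.48), Cd74 at 0.19 (-0.069 to 0.45), H2-DMa at -0.0077 and Ctss at -0.26 (-0.55 to 0.030). H2-DMa was at 0.014 after quantile normalization. Limma called 0 of the 7, where it called 5.92% of all genes; the smallest adjusted p was 0.0699, for Ciita. At an unadjusted p under 0.05 there were 2 of the 7, Ciita and H2-Eb1, against 20% of all genes. The median over the 7 was 0.21, against 0.020. In the same average all 10 stem cell markers were higher in Lgr5-high cells (list median 0.97), among them Lgr5 (1.82), Slc14a1 (1.30) and Tnfrsf19 (1.30). Of the tuft cell markers 7 of 9 were lower (list median -1.29), Avil (-1.22), Dclk1 (-1.33) and Alox5 (-1.34) among them, and of the enteroendocrine markers 8 of 10 (list median -1.01), Rfx6 (-1.26), Neurod1 (-1.27) and Pax6 (-0.65) among them. The B cell receptor subunit Cd79b (-0.53 ± 0.12, SE, adjusted p = 0.027) and Rac2 (-0.85 ± 0.19, SE, adjusted p = 0.0304) were also lower, and the part of these cells in the class II values was not tested.

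This average was the comparison in which single arrays decided a call. Without Lgr5-medium Ki67-high replicate 4 limma called 2 of the 7, H2-Eb1 at 0.43 (adjusted p = 0.0307) and H2-Aa at 0.50 (adjusted p = 0.0413). Without Lgr5-high Ki67-low replicate 1 it called Ciita, at 0.36 (adjusted p = 0.0336). With array weights, which count replicate 4 least, it called H2-Eb1 at 0.43 (adjusted p = 0.0368) and Ciita at 0.30 (adjusted p = 0.0343).

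For Ki67 low minus Ki67 high, averaged over the Lgr5 levels, Cd74 was at 0.47 (95% interval 0.20 to 0.73), H2-Aa at 0.46 (-0.033 to 0.96), H2-Ab1 at 0.33 (0.059 to 0.60), H2-Eb1 at 0.28 (-0.018 to 0.59) and Ciita at 0.12 (-0.055 to 0.30). H2-DMa and Ctss were at -0.13 each. Limma called 0 of the 7 (smallest adjusted p = 0.107, for Cd74), where it called 1.24% of all genes, and with array weights it called Cd74, at 0.49 (adjusted p = 0.0414). At an unadjusted p under 0.05 there were 2 of the 7, Cd74 and H2-Ab1, against 11.9% of all genes. The median over the 7 was 0.28, against -0.0083. In the same average 7 of 9 tuft cell markers were higher in Ki67-low cells (list median 1.52), Dclk1 (1.62), Avil (1.36) and Alox5 (1.57) among them, and 6 of 10 enteroendocrine markers (list median 1.01), Rfx6 (1.22), Pax6 (0.67) and Neurod1 (1.03) among them. Of the stem cell markers 4 of 10 were higher (list median 0.46), Lgr5 (1.02), Igfbp4 (0.67) and Sp5 (0.46) among them, and so were Krt18 (0.48) and Rac2 (1.07). The part of these cells in the class II values was not tested.

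The members differed in how they varied together over the 10 arrays, which are the same arrays and sort groups for every pair. The chain genes H2-Ab1 and H2-Eb1 correlated at Pearson's r = 0.94, H2-Aa and H2-Ab1 at 0.90, and H2-Aa and H2-Eb1 at 0.90. Cd74 correlated with these chains at 0.67 to 0.88, and Ciita at 0.66 to 0.87. H2-DMa correlated with the other 6 at -0.16 to 0.32, and Ctss with the other 6 at -0.57 (Ciita) to 0.32 (H2-DMa). Over the 9 arrays without Lgr5-medium Ki67-high replicate 4, a setting chosen after seeing the data, the 3 chain pairs were at 0.91 to 0.93 and Ctss with the other 6 at -0.68 to -0.21.

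After each group's mean had been removed, which leaves only the spread between replicates, H2-Ab1 and H2-Eb1 still correlated at 0.97, and H2-Aa with each of them at 0.83. Without replicate 4 H2-Ab1 and H2-Eb1 were at 0.95 on these deviations, while H2-Aa was at 0.68 with H2-Ab1 and 0.56 with H2-Eb1. H2-DMa correlated with Cd74 at 0.70 (0.66 without replicate 4), and Ctss with H2-Aa at 0.65 (0.27 without it). These values are descriptions of 10 arrays and carry no test.

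**Figure D3:**
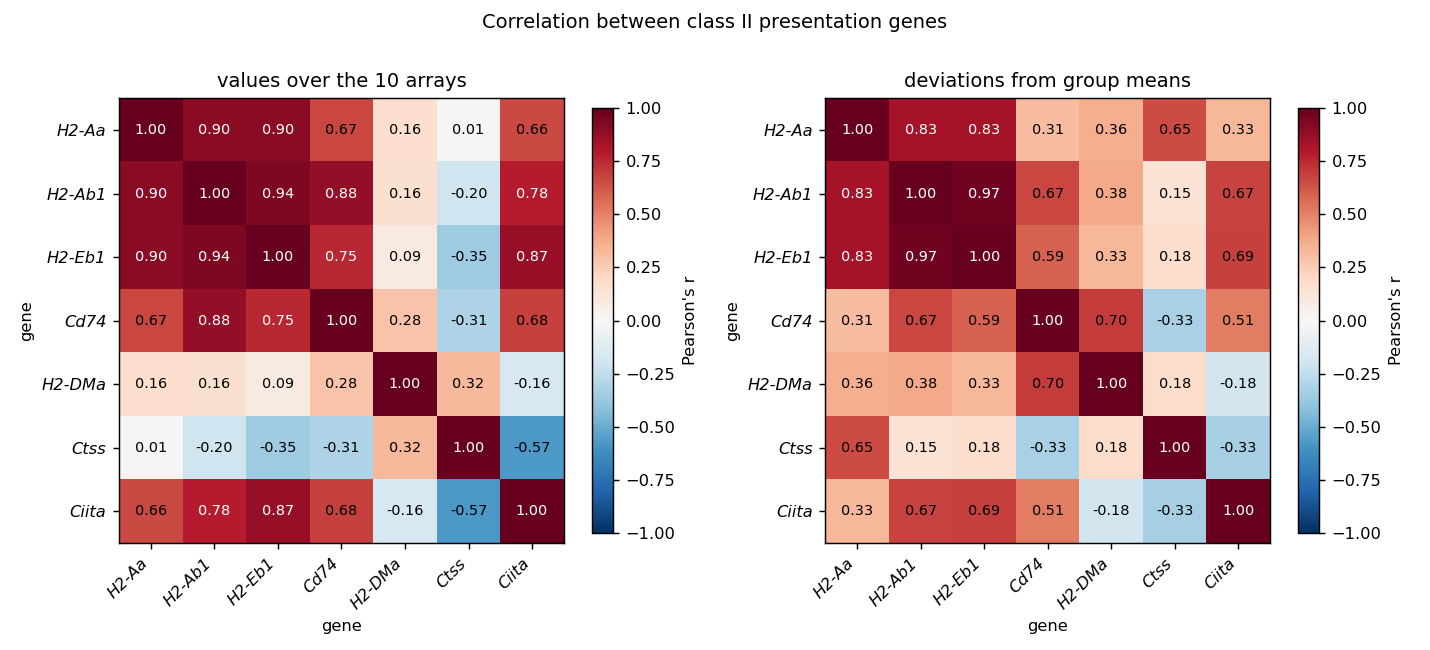
Pearson's r between the 7 genes (both axes) over the 10 arrays (left) and over the same arrays after each group's mean was removed (right). H2-Aa, H2-Ab1 and H2-Eb1 form a block at 0.83 to 0.97 in both panels, and H2-DMa and Ctss lie outside it.

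The mean deviation of the 7 genes from their own 10-array means summarised each array. It was 0.26 and 0.33 in the Lgr5-high Ki67-low arrays, 0.0013 and -0.19 in the Lgr5-high Ki67-high arrays, and -0.067 and -0.055 in the Lgr5-medium Ki67-low arrays. In the Lgr5-medium Ki67-high group it was -0.22, -0.29, -0.050 and, in replicate 4, 0.28. In this mean, replicate 4 was thus as high as the Lgr5-high Ki67-low arrays and above the rest of its own group. Not every gene followed. In that group Cd74 was highest in replicate 3 (10.03, against 9.92 in replicate 4) and Ciita in replicate 1 (5.30, against 5.25 in replicate 4).

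The same deviation was computed for the other lists. The T cell list, which includes the T cell receptor subunit Cd3g and the granzymes Gzma and Gzmb, was at 0.45 in Lgr5-medium Ki67-high replicate 4, against -0.76 to -0.054 in the other arrays of that group. It was 0.81 in Lgr5-medium Ki67-low replicate 2, where the class II deviation was -0.055. In replicate 4 the deviation was -0.11 for both the dendritic cell and the macrophage lists, 0.048 for the B cell list and 0.019 for the general leukocyte list. The tuft cell list was at -0.0022 there, against -1.06 to -0.58 in the other arrays of that group, and the epithelial list at -0.11, against -0.013 to 0.13.

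Within groups the class II profile correlated with the tuft cell list at r = 0.76, the leukocyte list at 0.75 and the T cell list at 0.60, and with the epithelial list at -0.75. Without replicate 4 these were 0.24, 0.34, -0.025 and -0.18, so each of the 4 rested largely on that array. The dendritic cell list was at -0.38 and the macrophage list at -0.37, and at 0.48 and 0.26 without it. The list of class II turnover and costimulation was at -0.63 and, without replicate 4, at -0.87. Its mean level was low, at 3.75, with 1 of 5 genes above the median gene level. The endosomal processing list was at 0.32 and, without replicate 4, at -0.79, and the class II promoter factors at 0.31 and 0.58. The part of the cell types of these lists in the class II values of replicate 4 was not tested.

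**Figure D4:**
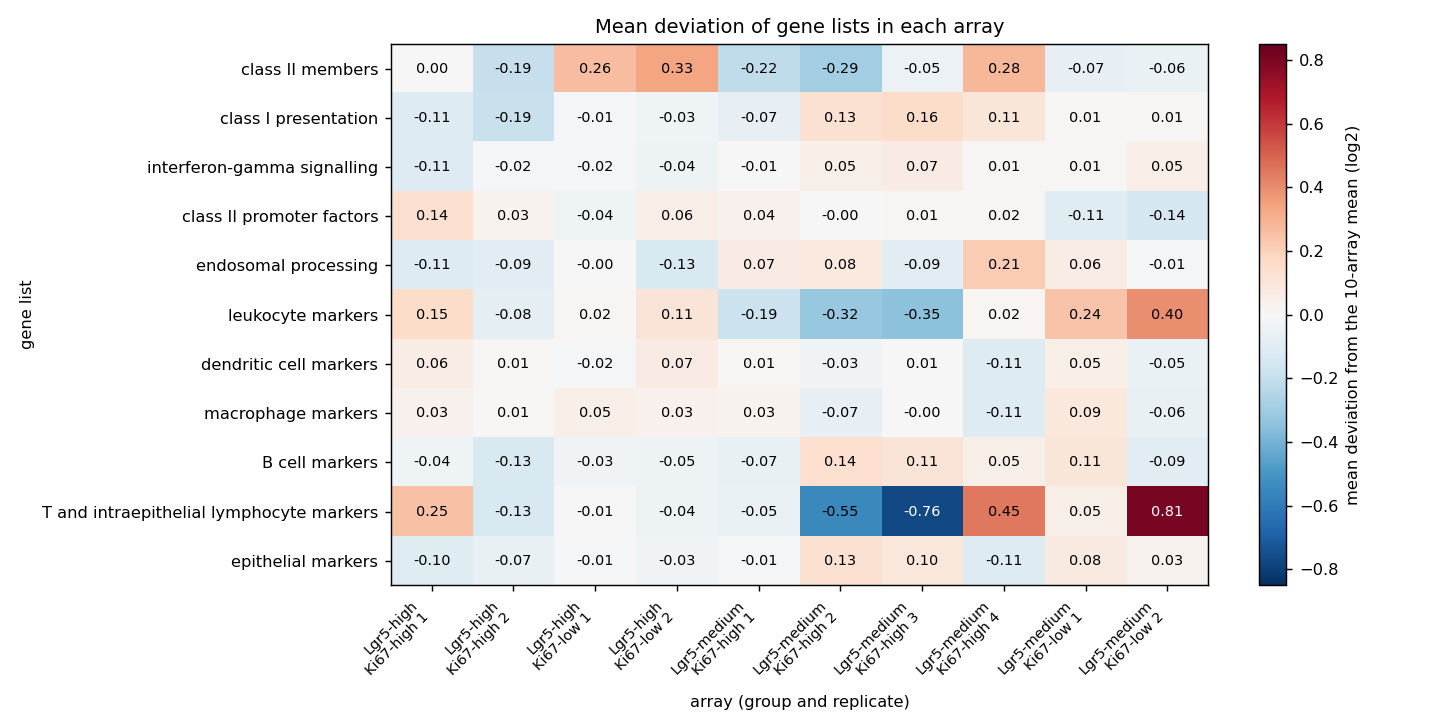
Mean deviation (colour and printed value, log2) of the class II genes and 10 other lists (y axis) from their 10-array mean in each array (x axis). The class II genes reach 0.26 and 0.33 in the Lgr5-high Ki67-low arrays and 0.28 in Lgr5-medium Ki67-high replicate 4, and the T cell list reaches 0.81 in Lgr5-medium Ki67-low replicate 2.

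The other genes of the pathway were taken from lists written with earlier results of these data known. Of the other class II loci, H2-Oa and H2-Ob, which form the H2-DM inhibitor H2-O, and H2-Eb2 were measured, and 0 of 3 passed the threshold in any of the 7 comparisons. Their differences at Lgr5 high lay between -0.023 and 0.19. Of the promoter-binding factors, 6 of 7 were measured (Rfx5, Rfxap, Nfya, Nfyb, Nfyc and Creb1) and 0 passed in any comparison. For Ki67 low minus Ki67 high at Lgr5 high only Nfyb, named here after its value was seen, was above 0 (0.00079), and the median was -0.026.

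Endosomal processing genes had 9 of 10 members measured, and 1 passed. Ctsc, the gene of cathepsin C, was lower in Lgr5-high than in Lgr5-medium cells, at -0.56 ± 0.078 (SE) where Ki67 was high (limma adjusted p = 0.0201) and at -0.42 ± 0.060 (SE) in the average over Ki67 levels (limma adjusted p = 0.00446). In the same comparison at Ki67 high the protease Ctss had pointed the same way, at -0.46, without passing. Of this list 1 of 9 members was above 0 there, with a median of -0.15. At Lgr5 high, Ki67 low minus Ki67 high, the list had a median of 0.020, with 5 of 9 above 0 and 0 past the threshold.

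Genes of class II turnover and costimulation had 5 of 7 measured (Cd80, Cd86, Cd40, Icosl and Cd274), and 0 passed in any comparison. Interferon-gamma signalling had 7 of 8 measured (Ifngr1, Ifngr2, Jak1, Jak2, Irf1, Irf2 and Socs1), and 0 passed in any comparison. The median of the interferon-gamma list was 0.013 at Lgr5 high and 0.011 at Lgr5 medium for Ki67 low minus Ki67 high, and -0.076 and 0.012 for Lgr5 high minus Lgr5 medium at Ki67 high and Ki67 low.

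Class I presentation, which serves CD8+ T cells and shares the interferon response, had 11 of 12 members measured. Its median was 0.088 for Ki67 low minus Ki67 high at Lgr5 high, with 9 of 11 above 0, and -0.28 for Lgr5 high minus Lgr5 medium at Ki67 high, with 1 of 11 above 0. The member above 0, named after its value was seen, was Nlrc5, the class I transactivator, at 0.19. Only Tap2, a subunit of the peptide transporter, passed in any comparison, lower in Lgr5-high cells at -0.28 ± 0.063 (SE) in the average over Ki67 levels (limma adjusted p = 0.0312). The difference between the class II and class I medians was not tested. The 6 endothelial markers, which mark a cell type outside the epithelium, had a median of 0.055 for Ki67 low minus Ki67 high at Lgr5 high, with 0 past the threshold.

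Genes with the most similar pattern were sought among the 9403 genes other than the members with a mean above the median gene, by Pearson's r with the mean class II profile over the 10 arrays. The highest were Morf4l1, a chromatin protein (r = 0.95), Pcna, the sliding clamp of DNA polymerases (0.94), Donson, a replication fork protein (0.92), Hells, a chromatin remodeller (0.89), and Eed, a Polycomb subunit (0.88). After group means were removed these were 0.94, 0.94, 0.85, 0.83 and 0.96. With replicate 4 of the Lgr5-medium Ki67-high group left out, the r of these 5 genes lay between 0.88 and 0.96 over the arrays, and within groups it was 0.78, 0.73, 0.78, 0.081 and 0.87, so that of Hells rested on that array. Pcna had log2 values of 11.43 and 11.41 in Lgr5-high Ki67-high, 11.56 and 11.68 in Lgr5-high Ki67-low, 11.36, 11.27, 11.41 and 11.66 in Lgr5-medium Ki67-high and 11.52 and 11.47 in Lgr5-medium Ki67-low cells. Its Lgr5-high Ki67-low replicate 2 was the highest array and Lgr5-medium Ki67-high replicate 4 the next. These genes were picked for their r among many candidates over the same 10 arrays, so the values are descriptions.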

How the data were processed

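RNA from 10 sorted samples was measured on 10 whole-transcript Affymetrix arrays (Mouse Gene ST 1.1). The authors deposited 1 value per probe set and array, read here as log2 because all values lie between 1.16 and 13.76; for the log base, background correction, probe summary and normalization, the sources used here give nothing. MAS5 and GCOS are the tools listed, with no role, per the submitters' processing notes. Values were used as deposited. Gene names came from the platform annotation: 21218 of 35556 had 1 symbol, 1881 several and 12457 were unnamed. A gene was represented by its probe set with the highest mean, which gave 18820 genes.

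The 10 arrays entered a single limma 3.58.1 model, with a mean for each group, in R 4.3.3 (6 residual degrees of freedom), followed by eBayes and Benjamini-Hochberg adjustment over all genes, with a threshold of 0.05. The script was tested on simulated data. Motifs were searched with Python 3.11.15. The members and the 16 other lists were chosen with earlier results of these data known. All members were named, up to 3 genes per list and comparison with the smallest p past the threshold, the sort markers, and the 5 genes most like the members.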

Additional observations from a re-analysis of the deposited data

How the results depend on the processing

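Alternatives were quantile normalization, arrays centred on their medians, no dimmest 30% of genes, the mean of a gene's probe sets, every row of the table, only the groups compared, array weights, eBayes with trend and robust, the replicate number as a block, and each array left out. No member was called in the 4 comparisons of 2 groups or the interaction under any of these; in the averages quantile normalization called 1 (Ciita, Lgr5, 0.29, adjusted p = 0.0417) and array weights 1 for Ki67 and 2 for Lgr5, and leaving out arrays gave 0 to 2 for Lgr5.

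Deviations of same-numbered arrays from their group means correlated between -0.30 and 0.013. In a group of 2 arrays these deviations mirror each other, so both replicate numbers gave -0.30 between the 2 Ki67-low groups. Pairing of the samples under another numbering was not tested with these correlations. With the replicate block 0 members were called in every comparison, the members' median was 0.29 for Ki67 at Lgr5 medium, 0.21 for Lgr5 at Ki67 high and 0.14 for the interaction, and H2-DMa turned to 0.086 (Ki67 at Lgr5 medium), 0.21 (Lgr5 at Ki67 high), 0.073 and 0.20 (averages) and -0.027 (interaction), Cd74 to 0.069 and H2-Ab1 to 0.17 (Lgr5 at Ki67 high). Crossing the numbers of the Lgr5-medium Ki67-low arrays, added after seeing the data, called 1 member and 881 genes in the comparison at Ki67 low. The member was H2-Aa, at 0.59 (limma adjusted p = 0.0388).

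Signs also turned with quantile normalization for Ciita (-0.062, Ki67 at Lgr5 medium), H2-Ab1 (0.090, Lgr5 at Ki67 high) and H2-DMa (0.014, Lgr5 average), with centring for Ciita (-0.090) and H2-Ab1 (-0.020) in Ki67 at Lgr5 medium and Ctss (0.0099, Lgr5 at Ki67 low), and with array weights for H2-Ab1 (0.11, Lgr5 at Ki67 high) and H2-DMa (0.029, Lgr5 average). The cause was not tested. Leaving out single arrays turned the sign of H2-DMa (-0.015 to 0.13) and Ctss (-0.12 to 0.27) for Ki67 at Lgr5 high, Ciita (-0.0041 to 0.066) and H2-Ab1 (-0.0017 to 0.21) for Ki67 at Lgr5 medium, H2-Aa (-0.044 to 0.41) and H2-Ab1 (-0.14 to 0.13) for Lgr5 at Ki67 high, Ctss (-0.25 to 0.13) for Lgr5 at Ki67 low and H2-DMa (-0.14 to 0.082) for the Lgr5 average.

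Genes called over the whole table also moved. For Ki67 at Lgr5 medium 674 became 1184 with centring, 373 with only the groups compared and 352 with the block; for Lgr5 at Ki67 high 176 became 8 over every row, 107, 6 and, with array weights, 1135; for Lgr5 at Ki67 low 534 became 318 over every row, 274 with only the groups compared and 803 with weights. For the averages 233 became 104 over every row and 530 with weights (Ki67) and 1115 became 628 and 1975 (Lgr5), and the interaction's 196 became 124, 128 with the block and 299 with weights. At Lgr5 high the 1 gene called fell to 0 over every row, with only the groups compared and with the block. Leaving out single arrays gave 0 to 4 genes (Ki67 at Lgr5 high), 264 to 779 (Ki67 at Lgr5 medium), 0 to 327 (Lgr5 at Ki67 high), 198 to 921 (Lgr5 at Ki67 low), 30 to 381 (Ki67 average), 359 to 1708 (Lgr5 average) and 79 to 292 (interaction).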
